A study of Mus musculus with 4 samples.

Results

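The genes described here are 10 mouse genes known from the small intestine: the lectins Reg3b and Reg3g, the alpha-defensins Defa2, Defa3, Defa29, Defa38 and Defa40, the ribonuclease Ang4, the pentraxin Mptx1 and the matrix metalloproteinase Mmp7. They were picked by name, out of 20971 genes that the array's probes could be matched to, with earlier results of the same arrays in view, their ratios included, so those ratios are given as a description and no test is made of them. All 10 had a probe, 13 probes in total. The cells were RAW 264.7, a macrophage-like line of BALB/c origin. One group was untreated, and the others had been with Lactobacillus bulgaricus, a lactic acid bacterium of fermented milk, at a multiplicity of infection of 10 for 1, 4 or 6 h. Each group was read on a single two-colour Agilent array, for which total RNA of 3 cultures had been mixed in equal parts. The RNA of the cells was labelled with Cy5 (red). The same common reference, described in the labels as RNA pooled from every group, was labelled with Cy3 (green) on all 4 arrays, with no dye swap.

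In the intestine these proteins are part of the chemical barrier against bacteria. Reg3b and Reg3g are C-type lectins secreted by epithelial cells, Reg3g binding the peptidoglycan of Gram-positive bacteria, and their transcription is raised by interleukin 22 through STAT3. Paneth cells, secretory cells at the base of the crypts, store alpha-defensins, small membrane-disrupting peptides, together with Ang4, a bactericidal ribonuclease, and Mptx1, a pentraxin; Mmp7 is the protease that cuts mouse pro-alpha-defensins to their active form. None of them is a usual product of cultured macrophages.

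Since no group had a second array, no test was possible, and precision is limited by their number. The rule of size for calling a gene higher or lower was a log2 ratio of Cy5 over Cy3 at least 1 (2-fold) above or below that of the untreated array. Probes printed 10 times on the array (230 of them) gave a spot SD of 0.15 for such a difference, which leaves out the spread between cultures. All 4 arrays shared 1 slide and were placed by time, which leaves slide position and time confounded: they cannot be told apart. In RNA from a bulk culture fewer cells of a type and less RNA per cell cannot be told apart. Between 49.5% and 51.8% of spots were well above background in Cy5. Of 10 listed macrophage genes with a probe, Csf1r, Itgam, Ptprc, Lyz2, Spi1, Adgre1 and Mpeg1 were well above background in both channels on every array. Fcgr1 was so in Cy5 on 3 arrays, with a Cy5 signal of 82.7 in untreated cells and 15.6 at 6 h. Tyrobp was so on 3 arrays and had no value at 1 h, and Cd14 had no value on any array. All 13 probes of the 10 genes were well above background in both channels on all 4 arrays, with 0 outlier and 0 saturated spots.

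Nearly the whole set stood above untreated cells by the ratio. At 1 h 9 of the 10 genes were higher, where 0.328% of 10369 measured genes were. At 4 h the count was 8, against 0.242% of 10339 genes, and at 6 h it was 6, against 0.456% of 10311. None of the 10 was lower at any time (0.0482%, 0.213% and 0.466% of all genes). Since the genes were chosen on this contrast, these counts describe the choice. The median difference of the set was 1.70, 1.71 and 1.18 at 1, 4 and 6 h, where the median of all measured genes was 0.058, 0.0042 and -0.013. Reg3b, Reg3g, Defa3 and Defa40 were higher at all 3 times, as were 0.0396% of the 10110 genes measured on all 4 arrays, that is these 4 genes and no others. All 3 comparisons share the untreated array, on which 9 of the 10 genes had their lowest ratio. Over all 10110 genes that array gave the lowest ratio for 29.8%.

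**Figure D1:**
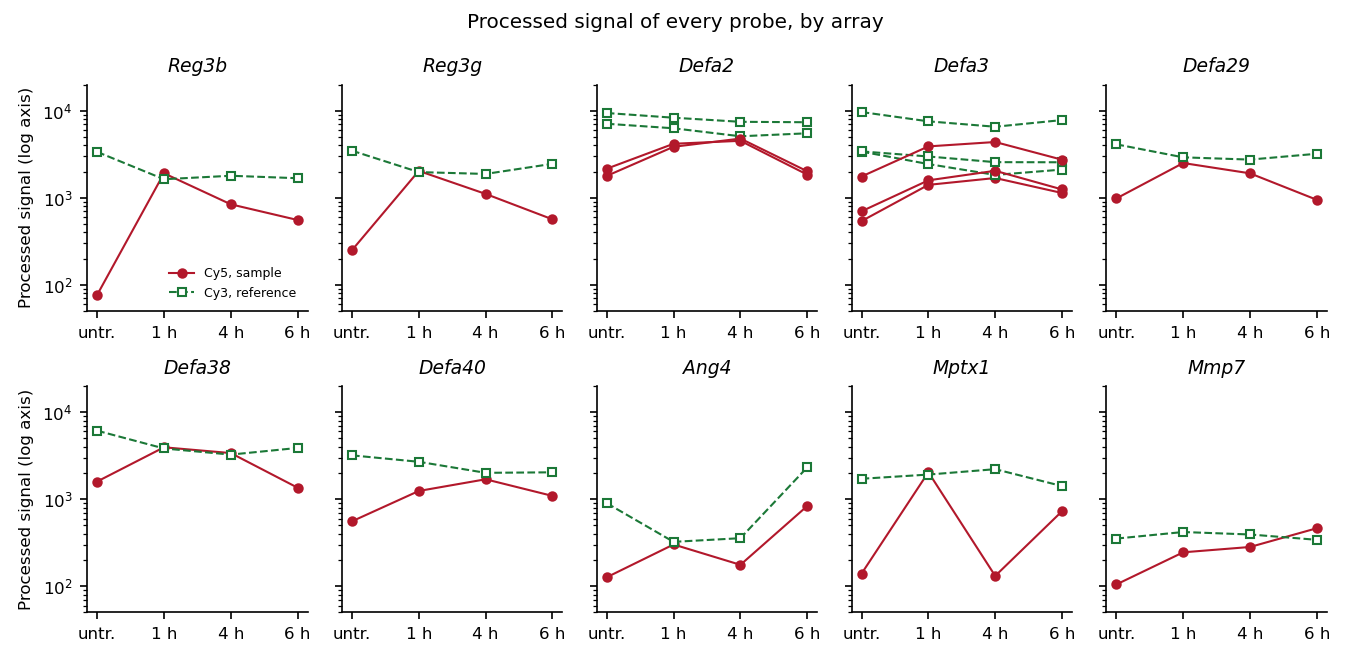
Processed signal (the scanner software's background-subtracted and dye-normalized brightness, log axis) of every probe of the 10 genes by array (untreated, then 1, 4 and 6 h), Cy5 (cells) as filled circles and Cy3 (common reference) as open squares, 1 line per probe and channel. In Reg3b the Cy5 signal went from 76.3 to 1908 between the untreated and 1 h arrays, and in Mptx1 it alternated between 139, 2042, 131 and 728.

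Reg3b had the largest ratio difference of any measured gene at each of the 3 times, and in Cy5 alone it ranked 1, 1 and 29. Its processed Cy5 signal was 76.3 in untreated cells and 1908, 839.6 and 554 after 1, 4 and 6 h, while the Cy3 signal was 3361, 1631, 1788 and 1675. The Cy5 signal was thus 2.27% of the reference in untreated cells and 117%, 47.0% and 33.1% of it after 1, 4 and 6 h. The untreated spot was dim in Cy5, with a median brightness of 118 over a local background of 29, and the size of the difference depends on how that background is handled. With an offset of 50 added to both channels the log2 differences were 4.18, 2.98 and 2.46 (18.1-fold, 7.89-fold and 5.51-fold). With an offset of 0 in the same correction they were 4.60, 3.31 and 2.72. The software's own ratios, with its own background subtraction and dye normalization, gave 5.69 ± 0.60, 4.37 ± 0.60 and 3.86 ± 0.61. The error is that of its spot error model. Part of each difference lay in the reference, which per the labels is the same RNA on every array. With the arrays brought to a common scale, Cy5 alone differed by 3.29, 2.26 and 1.69 and Cy3 alone by -0.89, -0.72 and -0.77.

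Reg3g, the second lectin, followed the same order of arrays with smaller differences. Its Cy5 signal was 249, 2033, 1106 and 564 in untreated, 1 h, 4 h and 6 h cells, and its Cy3 signal was 3472, 1969.5, 1876 and 2452. The differences of 3.02 and 2.38 at 1 and 4 h were the second largest of all genes, and that of 1.40 at 6 h was number 22 in rank. Cy5 alone differed by 2.46, 1.62 and 1.00 and Cy3 alone by -0.56, -0.76 and -0.40. In both lectins the order of the ratios was 1 h, 4 h, 6 h and untreated from high to low, and every gap between neighbours exceeded 0.3, the largest value that 2 spot SDs took between any pair of arrays (0.304).

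The other Reg genes did not pass the rule. Reg3a stood at 0.32, 0.14 and -0.47 and Reg4 at 0.71, 0.38 and 0.42 at 1, 4 and 6 h. Reg1, Reg2 and Reg3d were not well above background in either channel on any array, with Cy5 signals of 4.36 to 11.6.

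Reg3b and Reg3g lie on the same chromosome, and the bases before their transcript starts are shown because these genes held the first and second rank at 1 and 4 h. The windows are the 250 bases before each start in RefSeq's annotation of GRCm38.p6, chr6:78370635-78370884 on the plus strand for Reg3b and chr6:78468875-78469124 on the minus strand for Reg3g, written 5′ to 3′. Capitals mark the runs of 12 or more bases that both share in a global alignment.
Reg3b: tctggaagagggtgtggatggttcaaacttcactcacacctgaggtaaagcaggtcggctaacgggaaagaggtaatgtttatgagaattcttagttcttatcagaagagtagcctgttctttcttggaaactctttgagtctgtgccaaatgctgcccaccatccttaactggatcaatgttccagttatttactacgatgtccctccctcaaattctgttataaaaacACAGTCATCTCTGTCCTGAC
Reg3g: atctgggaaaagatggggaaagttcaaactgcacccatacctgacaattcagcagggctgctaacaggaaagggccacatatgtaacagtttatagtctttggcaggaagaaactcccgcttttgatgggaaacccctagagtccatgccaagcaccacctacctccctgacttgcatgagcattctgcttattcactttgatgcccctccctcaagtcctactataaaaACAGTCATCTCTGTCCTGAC
The pair was identical at 173 of 250 bases (69.2%), and the single long run of 20 bases ended at the start site. The letters TATAAA, the core of a TATA box, began 29 bases before the start in Reg3b and 27 in Reg3g. The palindromic STAT motif TTCNNNGAA, searched on both strands, occurred in Reg3b as TTCTTGGAA, 129 to 121 bases before the start, and was not in the Reg3g window. It was in 7.01% of 32817 windows of the same length.

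The 5 alpha-defensins had differences of 1.23 to 1.87 at 1 h and 1.36 to 2.03 at 4 h, all past the rule, and of 0.27 to 1.40 at 6 h, where Defa3 and Defa40 alone were past it. Alpha-defensins are near-identical copies of one another, so a probe named for 1 of them may also bind others, and the values of single members are uncertain. Defa38 had a Cy5 signal of 1596, 3949.6, 3389 and 1355 in untreated, 1 h, 4 h and 6 h cells and a Cy3 signal of 6130.1, 3829.5, 3255 and 3884. Its differences were 1.87, 1.84 and 0.44, so it was high at 1 and 4 h, with the ratios of those arrays only 0.028 apart. At 6 h it was under the rule but more than 2 spot SDs (0.304) above untreated cells. Defa29 had a Cy5 signal of 980.0, 2503, 1906 and 946 and a Cy3 signal of 4107, 2911, 2742 and 3199.6. Its differences were 1.71, 1.36 and 0.27, and at 6 h it lay within 2 spot SDs of untreated cells.

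Defa2, Defa3 and Defa40 had their highest ratio at 4 h instead. Defa40 had a Cy5 signal of 557, 1243, 1694 and 1091 and a Cy3 signal of 3192, 2692, 2010.0 and 2037, with differences of 1.34, 2.03 and 1.40. Defa2 was read by 2 probes, with Cy5 signals of 2154, 4168, 4506 and 1842 for one and 1780.0, 3848, 4781 and 2012 for the other. These probes differed by 0.015, 0.094 and 0.24 in their log2 differences at 1, 4 and 6 h, with 1.22, 1.54 and 0.26 for the first and 1.24, 1.63 and 0.50 for the second. The 3 probes of Defa3 gave 1.29 to 1.65 at 1 h, 1.71 to 2.14 at 4 h and 0.90 to 1.45 at 6 h, with means of 1.47, 1.87 and 1.16. For Defa3 1 of the 3 probes was thus under the rule at 6 h.

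In Cy5 alone the defensins differed less. At 1 h Defa3 (1.03), Defa29 (1.16) and Defa38 (1.23) passed the rule and Defa2 (0.86) and Defa40 (0.81) did not. At 4 h Defa2 (1.09), Defa3 (1.34), Defa38 (1.15) and Defa40 (1.33) passed and Defa29 (0.82) did not. At 6 h none of the 5 passed, and Defa2, Defa29 and Defa38 stood at -0.10, -0.05 and -0.12. The reference of all 5 was dimmer on each treated array than on the untreated array, by 0.32 to 0.69.

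The windows before Defa2 (chr8:21378267-21378516, plus strand) and Defa38 (chr8:21096051-21096300, minus strand), again RefSeq on GRCm38.p6 and 5′ to 3′, show how alike the copies are outside their transcripts. Capitals mark runs of 12 or more shared bases.
Defa2: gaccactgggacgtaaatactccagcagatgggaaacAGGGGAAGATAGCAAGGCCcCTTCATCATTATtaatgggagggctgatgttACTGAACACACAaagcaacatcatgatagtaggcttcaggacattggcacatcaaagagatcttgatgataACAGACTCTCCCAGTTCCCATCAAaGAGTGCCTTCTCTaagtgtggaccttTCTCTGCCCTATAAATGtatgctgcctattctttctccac
Defa38: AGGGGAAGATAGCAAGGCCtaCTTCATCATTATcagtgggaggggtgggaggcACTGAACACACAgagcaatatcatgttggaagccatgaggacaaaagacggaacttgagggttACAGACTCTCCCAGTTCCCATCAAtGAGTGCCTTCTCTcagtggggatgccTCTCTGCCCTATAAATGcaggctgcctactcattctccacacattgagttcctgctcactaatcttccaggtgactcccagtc
They were identical at 172 of 250 bases (68.8%) and shared 6 long runs, the longest of 24 bases, although the annotated start lies farther downstream in Defa38: TATAAA began 31 bases before the start in Defa2 and 74 in Defa38. Among the 7 of the 10 genes with a promoter entry (Defa3, Defa29 and Defa40 had none), TATAAA on either strand was found in 6, against 12.4% of 32817 windows. On the forward strand, beginning 20 to 40 bases before the start, it was found in Defa2, Mmp7, Reg3b and Reg3g, against 2.0% of windows. The motif of the TCF factors of Wnt signalling, searched as CTTTGAA or CTTTGAT on both strands, was found in Defa2, Mptx1 and Reg3g, against 7.48% of windows. Among the 7, no pair other than Reg3b with Reg3g and Defa2 with Defa38 shared an aligned run of 12 bases. Those other pairs were identical at 46.8% to 54.8% of bases.

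**Figure D2:**
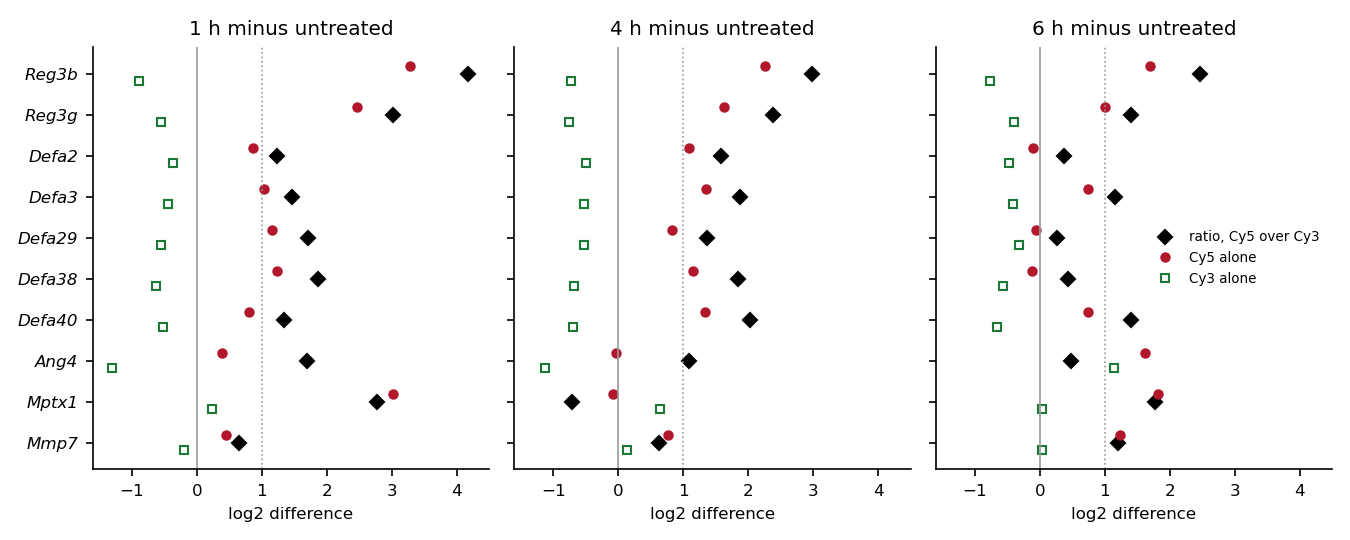
Differences from the untreated array on the log2 scale at 1, 4 and 6 h for each of the 10 genes: the ratio of Cy5 over Cy3 as diamonds, Cy5 alone as filled circles and Cy3 alone as open squares, with a dotted line at 1. Reg3b lies farthest to the right by the ratio at each time (4.18, 2.98 and 2.46), Mptx1 lies left of 0 at 4 h alone (-0.72), and both channels of Ang4 lie right of 1 at 6 h.

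Mptx1 was the member with the most uneven course. Its Cy5 signal was 139 in untreated cells, 2042 at 1 h, 131 at 4 h and 728 at 6 h, while the reference stayed between 1415 and 2214. Cy5 was thus 8.12%, 106%, 5.93% and 51.4% of the reference. The log2 differences of the ratio were 2.78, -0.72 and 1.78, and in Cy5 alone 3.01, -0.08 and 1.81. From 1 h to 4 h Mptx1 had the largest decrease of all 10537 genes measured on those arrays (-3.50, or 11.3-fold), and from 4 h to 6 h the second largest increase of 10505 (2.50). The 1 h and 6 h arrays were high and the untreated and 4 h arrays low.

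Mmp7, the protease that activates the defensins, was dim in both channels and had a course of its own. Its Cy5 signal was 104.8, 245, 282 and 464 in untreated, 1 h, 4 h and 6 h cells, and its Cy3 signal was 353, 419.7, 393 and 341. The differences were 0.64, 0.62 and 1.20, so the rule was passed at 6 h only. Its ratios at 1 and 4 h were 0.019 apart, within the spot error, and the highest Cy5 signal was at 6 h, where those of Reg3b, Reg3g and the 5 defensins were below their 1 h signals. The reference of Mmp7 differed from that on the untreated array by 0.20 or less, the least of the 10 genes at 6 h with that of Mptx1 (0.04 and 0.03). From 1 h to 4 h the reference of Mmp7 differed by 0.34.

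Ang4 passed the rule by its ratio at 1 and 4 h (1.70 and 1.09) and not at 6 h (0.48). Its channels did not follow the ratio: the Cy5 signal was 127, 302, 176 and 836, and the reference was 899.5, 324, 356 and 2324. The reference alone differed by -1.30, -1.12 and 1.14 and Cy5 alone by 0.39, -0.03 and 1.62. The single Ang4 spot lies in column 85 of 85, at the edge of the array. In that column 24.6%, 24.0% and 46.7% of spots well above background differed by at least 1 in the reference at 1, 4 and 6 h, against 1.45%, 1.81% and 3.16% in the other columns, none of them upward at 1 and 4 h and all of them upward at 6 h. For the ratio the median absolute difference in column 85 was 0.057, 0.13 and 0.18, against 0.090, 0.13 and 0.17 elsewhere. None of the other 12 probes lay in the first or last column. Without Ang4 the counts past the rule were 8, 7 and 6 of 9 genes by the ratio and 6, 6 and 4 in Cy5 alone.

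**Figure D3:**
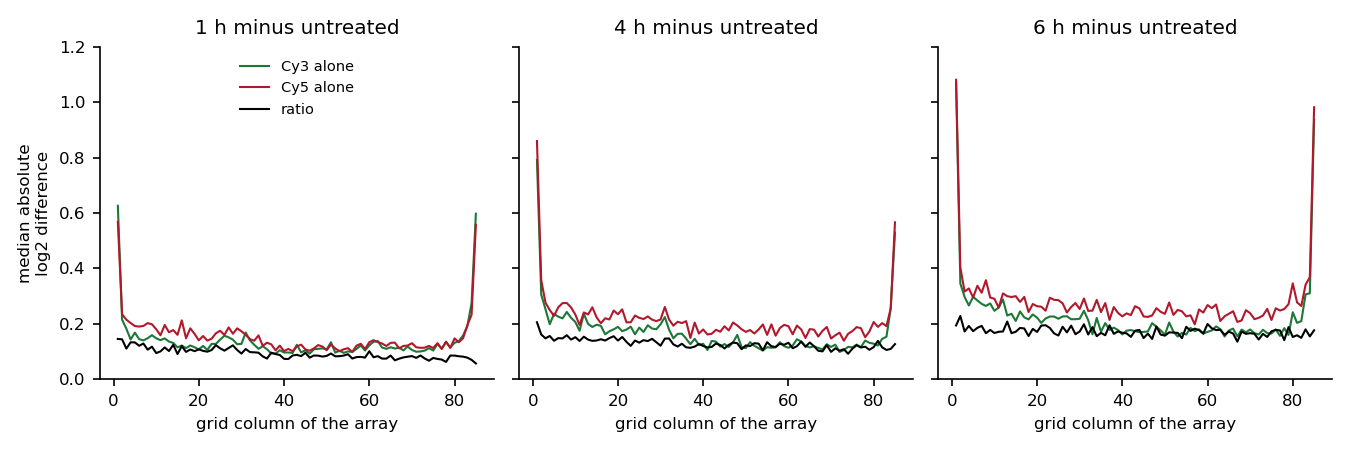
Median absolute log2 difference from the untreated array over spots well above background, by grid column of the array (1 to 85), for Cy3 alone, Cy5 alone and their ratio at 1, 4 and 6 h. Both single channels spike in the outermost columns, with 0.94 in Cy3 in column 85 at 6 h, where the Ang4 spot lies, while the ratio has no such spike, at 0.18 there.

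In Cy5 alone 6 of the 10 genes were higher at 1 h, 6 at 4 h and 5 at 6 h, against 0.376%, 0.474% and 1.54% of all genes. Reg3b and Reg3g passed at all 3 times, as did 0.119% of genes. The reference was dimmer than on the untreated array in 9, 8 and 7 of the 10 genes, by a median of -0.54, -0.61 and -0.40, where the median over all genes was -0.0085, 0.042 and 0.075. Over all genes the reference was brighter than on the untreated array in 47.9%, 58.9% and 62.2%. In the reference 1 of the 10, Ang4, was lower by at least 1 at 1 and at 4 h (0.82% and 0.88% of genes), and Ang4 was higher at 6 h (1.17% of genes). None of the 10 was higher by 1 in the reference at 1 or 4 h (0.338% and 0.503% of genes) or lower at 6 h (1.39%), and none was lower in Cy5 at any time (0.675%, 1.15% and 2.09%). Over the 4 arrays the reference of the 10 genes spanned a median range of 0.67, against 0.26 for all genes, and Cy5 spanned 1.35 against 0.36. The Cy5 range exceeded the Cy3 range in 9 of the 10, with Ang4 the exception. The share of all genes for which it did so was not computed, and their median range was also larger in Cy5 than in Cy3.

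Comparisons among the 3 treated arrays do not use the untreated one. From 1 h to 4 h none of the 10 genes was higher (0.038% of genes) and 2 were lower, Mptx1 (-3.50) and Reg3b (-1.20), against 0.38% of genes. The same 2 were lower in Cy5 alone (0.427% of genes; none higher, 0.142%), and in the reference none moved by 1 (0.161% higher and 0.038% lower). From 4 h to 6 h Mptx1 was higher (0.19% of genes), and Defa38 (-1.40), Defa2 (-1.21) and Defa29 (-1.09) were lower (0.143% of genes). In Cy5 alone Mptx1 and Ang4 were higher (1.05% of genes) and Defa2 and Defa38 lower (0.419%), and in the reference Ang4 was higher (0.838%) and none lower (0.238%). From 1 h to 6 h 5 of the 10 were lower, Reg3b (-1.72), Reg3g (-1.62), Defa29 (-1.45), Defa38 (-1.43) and Ang4 (-1.22), against 0.696% of genes, and none was higher (0.171%). In Cy5 alone, Reg3b, Reg3g, Defa29, Defa38 and Mptx1 were lower from 1 h to 6 h, against 1.19% of genes, and Ang4 was higher (1.13%). In the reference Ang4 was higher (0.915%) and none lower (0.314%). Both lectins, Defa29 and Defa38 were thus lower at 6 h than at 1 h in the ratio and in Cy5 alone. Leaving the untreated array out does not free these comparisons from the choice of genes. The 10 were picked with the ratios of these arrays in view, and 6 of them had their highest ratio at 1 h.

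The reference was brighter than the cells for most of these genes on most arrays. In an equal pool of the 4 samples the ratios of a gene would average 1 over the 4 arrays, apart from dye effects. The labels do not give the shares of the pool, and whether the reference held RNA of these 4 samples alone was not tested, which limits what the mean ratios and reference signals can be read as. The median of that mean ratio over 10110 genes was 1.01, and 90% of genes lay between 0.833 and 1.30 [5th to 95th percentile]. All 10 genes lay below 1, as did 45.4% of genes, and 9 of them lay below the 5th percentile, with Mmp7 (0.886) the exception. Mptx1 (0.468) and Defa2 (0.473) were below 0.5, which 0.208% of genes were, followed by Reg3g (0.502), Defa3 (0.523), Reg3b (0.560), Defa40 (0.561), Defa29 (0.574), Ang4 (0.620) and Defa38 (0.644). By the offset and loess ratio, Cy3 exceeded Cy5 on all 4 arrays for Reg3g and the 5 defensins, as it did for 18.6% of genes. In the processed signals Cy5 was slightly above Cy3 for Reg3g at 1 h (2033 against 1969.5) and for Defa38 at 1 h (3949.6 against 3829.5) and 4 h (3389 against 3255).

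**Figure D4:**
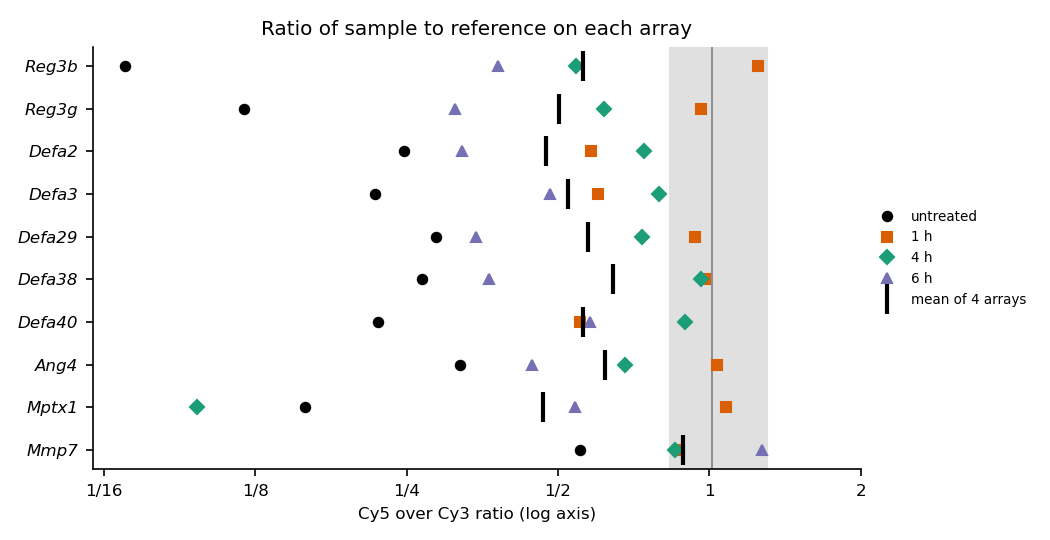
Ratio of Cy5 over Cy3 (log axis) for each of the 10 genes by array (circle untreated, square 1 h, diamond 4 h, triangle 6 h), with the mean of the 4 ratios as a black bar. The grey band spans the 5th to the 95th percentile of that mean over all 10110 genes (0.833 to 1.30) and the grey line their median (1.01). The black bars run from 0.468 for Mptx1 to 0.886 for Mmp7, and only that of Mmp7 lies in the band.

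Other genes of the same cells were read from lists written with the earlier results known. Among genes measured on all 4 arrays, 33, 25 and 47 of 10110 were higher at 1, 4 and 6 h. Of 6 other measured alpha-defensins 4 were higher at 1 h, 4 at 4 h and 0 at 6 h, with a median of 1.13, 1.28 and 0.52: Defa42 (1.57, 1.44 and 0.23), Defa23 (1.15, 1.41 and 0.80), Defa36 (1.31, 1.29 and 0.73) and Defa21 (1.1, 1.27 and -0.18). In Cy5 alone 2, 1 and 1 of these 6 were higher. The 1 at 6 h was Defa21, which also lies in column 85 and whose Cy5 alone differed by -0.45, -0.15 and 2.27. Of 7 other Paneth cell markers 0, 1 and 0 were higher, with medians of 0.58, 0.61 and 0.37. Itln1, a lectin that binds microbial sugars, stood at 0.95, 1.06 and 0.63, the guanylin-family peptide gene Guca2b at 0.60, 0.61 and 0.59, Clps, the colipase, at 0.58, 0.61 and 0.27 and Tcf7l2, a Wnt effector, at 0.04, 0.65 and 0.19. Lyz1, the lysozyme of Paneth cells, named for its role after its values were seen, stood at 0.30, -0.0039 and -0.27. In Cy5 alone Lyz1 was at -0.23, -0.62 and -1.23. None of the 7 markers was higher by 1 in Cy5 alone at any time, and Lyz1 was lower at 6 h (2.09% of genes).

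None of the measured factors of the Paneth cell lineage passed the rule. Of 9 listed lineage genes with a probe 3 were measured on all 4 arrays, and Atoh1, Sox4 and Wnt3 were not well above background in either channel on any array. Spdef, a secretory lineage factor, stood at 0.28, 0.26 and 0.20, Ephb3, a crypt guidance receptor, at -0.0004, 0.0050 and -0.25, and Xbp1, a factor of secretory cells that macrophages use too, at -0.0013, -0.47 and -0.68.

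Of 10 measured genes listed as upstream of Reg3, 0 were past the rule at any time, with medians of 0.10, 0.12 and -0.12. The list held genes of the interleukin 22 and STAT3 route (Il10rb, Jak1, Tyk2, Stat3 and Socs3) and also Il6st, Il17ra, Myd88, Tlr4 and Nod2. The receptor chain Il22ra1 was not among the measured genes, being well above background in the reference on 1 array only. Il22 itself, its decoy receptor Il22ra2, Il17a and Tlr5 were not well above background in either channel on any array. Stat3, the factor that drives Reg3 genes, stood at 0.13, 0.14 and 0.08 and its feedback inhibitor Socs3 at 0.14, 0.16 and -0.20. Il17ra, the interleukin 17 receptor, stood at 0.06, -0.41 and -0.93, Nod2, a sensor of peptidoglycan, at 0.64, 0.27 and 0.11, Il10rb, the shared receptor chain for interleukins 10 and 22, at 0.23, 0.55 and 0.17 and Tlr4 at 0.06, 0.33 and -0.17.

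Markers of other intestinal cells were present in both channels and moved with the set in part. Of 8 measured goblet cell markers 3, 0 and 2 were higher at 1, 4 and 6 h, with medians of 0.96, 0.37 and 0.74: Fcgbp, a mucus protein, at 1.79, 0.68 and 1.17, Clca1, a mucus protease, at 1.61, 0.32 and 0.88, Spink4 at 1.08, 0.79 and 0.61 and Lypd8 at 0.93, 0.24 and 1.82. In Cy5 alone 2, 0 and 1 of the 8 were higher. The summed processed Cy5 signal of these 8 was 4333, 9006, 5799 and 6399 in untreated, 1 h, 4 h and 6 h cells, and the summed signal of the 10 genes was 6792, 20527, 16865 and 10169. Of 15 measured enterocyte markers 0, 1 and 0 were higher and 0, 1 and 0 lower, with medians of 0.17, 0.19 and -0.052. The ileal bile acid carrier Fabp6 stood at -0.43, 1.13 and 0.38, the lactase gene Lct at -0.45, -1.71 and -0.79, the sucrase gene Sis at -0.45, -0.19 and -0.88 and the intestinal factor Cdx1 at 0.68, 0.72 and 0.78. Their summed Cy5 signal was 11159, 11002, 14336 and 9970.2, and that in the reference 21009, 22914, 20065 and 18598. Cy3 exceeded Cy5 on all 4 arrays in 10 of these 15 and in 5 of the 8 goblet cell genes. No listed gene of either kind was dim in Cy5 on all 4 arrays. The part of these other intestinal transcripts in the values of the 10 genes was not tested.

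Pancreatic acinar cells, which also make Reg proteins, left less trace: of 13 listed genes with a probe 8 were not well above background in Cy5 on any array, among them Cpa1, Pnlip and Prss2. The zymogen granule gene Sycn had the same alternation as Mptx1, at 1.64, -0.69 and 2.38, with Cy5 signals of 53.8, 509.8, 25.7 and 967. Cela1 stood at 0.10, -0.09 and 0.46. Of 3 measured plasma and B cell genes none passed, with Jchain at 0.08, 0.53 and 0.52, Mzb1 at 0.06, 0.12 and 0.47 and Cd79b at -0.12, -0.05 and 0.01, while Cd79a, Ms4a1 and Pou2af1 were not well above background in Cy5 on any array.

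Antimicrobial genes that phagocytes do use did not pass the rule. Of 7 measured genes none was past the rule at any time, with medians of 0.03, -0.13 and -0.07. The nitric oxide synthase gene Nos2 was at -0.67, -0.93 and -0.61, Acod1, which makes itaconate, at -0.19, 0.13 and 0.41, Lcn2, an iron-scavenging lipocalin, at -0.07, -0.22 and -0.39 and the protease inhibitor Slpi at 0.03, 0.07 and 0.20. The macrophage markers had medians of 0.010, -0.07 and -0.10 with 0 of 7 past the rule, among them Ptprc (-0.20, -0.44 and -0.45), Spi1 (0.10, 0.09 and 0.31), Lyz2 (0.010, -0.29 and -0.29) and Adgre1 (-0.19, -0.17 and -0.24). In Cy5 alone several of these values turned: Ptprc stood at 0.56, 0.59 and 0.63, Adgre1 at 0.27, 0.43 and 0.35, Lcn2 at 0.65, 0.56 and 0.47 and Nos2 at 0.14, -0.30 and 0.17. Spi1 was at 0.72, 0.89 and 1.13 in Cy5 alone, past the rule at 6 h. Of 13 listed ribonuclease and metalloproteinase genes related to Ang4 and Mmp7, 8 were not well above background in either channel on any array. Of the 3 measured, Rnase4 stood at 0.31, 0.61 and 0.19, Ang at 0.17, 0.21 and 0.23 and Mmp9 at -0.05, -0.26 and -0.25.

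**Figure D5:**
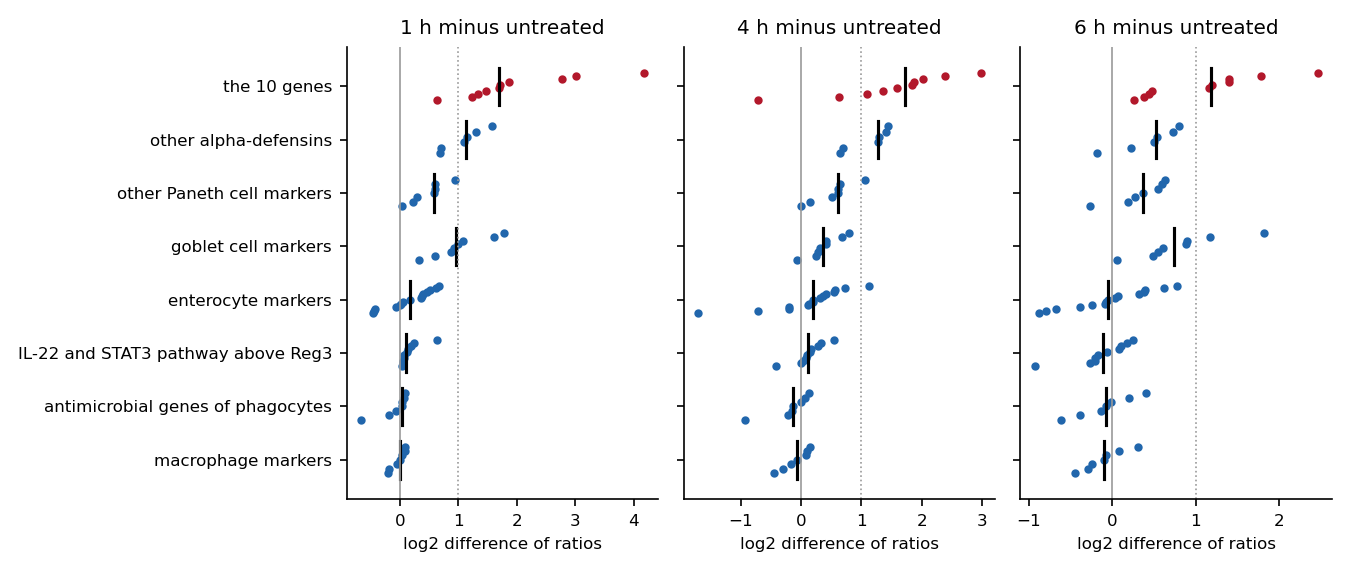
Difference of log2 ratios from the untreated array at 1, 4 and 6 h for each measured gene (points) of 8 gene lists, with the list's median as a black bar and a dotted line at 1. The bars of the 10 genes (1.70, 1.71 and 1.18) and of the other alpha-defensins (1.13, 1.28 and 0.52) lie farthest right at 1 and 4 h, and those of the phagocyte and macrophage lists lie within 0.13 of 0.

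The genes most like these in pattern were sought among 9791 other measured genes, by the Euclidean distance between their 3 log2 differences. None came near Reg3b: the closest was Tspan1, a tetraspanin of epithelia (1.43, 0.79 and 2.19), at a distance of 3.53, followed by Fcgbp (3.56), Ier3 (3.64), the intestinal glutathione peroxidase gene Gpx2 (3.73) and Defa36 (3.75). Ier3, an early response gene, stood at 0.73, 2.12 and 1.65. Around the median of the 5 defensins (1.47, 1.84 and 0.44) the nearest were Defa42 (0.47), Defa36 (0.64), Defa23 (0.64), Gpx2 (0.74; 1.64, 1.13 and 0.46) and Plekhm1 (0.91; 0.76, 1.28 and 0.58). Over 3 differences from 1 shared array such a likeness is a description only. The Cy5 of Gpx2 was 1006, 3345, 2176 and 1295 and its Cy3 4201 to 4766, so it too was brighter in the reference than in the cells on every array.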

How the data were processed

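Two-colour Agilent arrays held RNA of the cells in Cy5 and the common reference in Cy3, per the labels. Per the submitters' processing notes the scanner software was Agilent Feature Extraction, version 10.5.1.1. The deposited files give intensity values (median brightness of spot and local background), processed signals, and the software's log10 ratio (Cy5/Cy3); the deposited series table repeats that log10 ratio. Other steps of the authors are not given in the sources used here.

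With limma 3.58.1 (R 4.3.3), normexp with an offset of 50 was applied to the median intensities, followed by loess on single arrays, control and outlier spots (1.55% to 1.84%) at weight 0, with no step between arrays. Outlier spots were left out. Spots of a probe, then a gene's measured probes, were averaged; measured means well above background in both channels on the arrays compared. A difference of log2 ratios cancels the reference only where its signal is the same on both arrays. Single channels were compared after Aquantile scaling. The offset shrinks differences of dim genes. Probes were named through unversioned accessions in a RefSeq table of GRCm38.p6 (27655 of 39429 matched); the files hold no probe sequences. Steps were tested on simulated data. Genes named besides the 10 were up to 4 per list with the largest difference and the 5 nearest in pattern to Reg3b and to the defensins. Members and lists were chosen with earlier results of these data known. Tables were made with pandas 2.3.3 and numpy 2.4.6 in Python 3.11.15.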

Additional observations from a re-analysis of the deposited data

Results flagged for a closer look

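By the ratio, Mptx1 stood above the untreated array at 1 and 6 h and below it at 4 h. Its log2 difference from the untreated array was 2.78 at 1 h and 1.78 at 6 h, and -0.72 at 4 h. In Cy5 alone the 4 h value was -0.076, while the reference differed by 0.64. The spot SD of 0.15 was taken from ratios and does not measure the error of a single channel. The difference between the times was not tested, since each group is 1 array. By the software's own ratios the 4 h value was -0.45 ± 0.59.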

How the results depend on the processing

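Each count of higher genes was recomputed under 10 alternatives. The counts of 9, 8 and 6 of 10 at 1, 4 and 6 h stayed within 1.5 times, with 1 exception: at a 3-fold rule the 6 h count was 2. The count of genes with a mean ratio below 0.5, 2 of 10, was 6 in the scanner software's processed signals and 6 in the deposited ratios. It was 0 with median centring in place of loess, where the mean ratio of all genes had a median of 1.57. Over all 10110 genes the count moved too, from 21 to 136 in the processed signals, 136 in the deposited ratios and 3 with median centring. The cause was not tested. Ang4 at 4 h, 1.09 by the ratio, was -0.031 in Cy5 alone. Of the values of single genes under the alternatives, 145 moved by less than the spot error, 94 moved by more and 1, that of Ang4, changed sign from a value past the rule. Many of the 145 could not move. All 13 probes passed the background filter, so the alternatives to that filter returned the same values. Taking the brightest probe could change only Defa2 and Defa3, which have more than 1 probe. The tally is therefore no measure of stability. Of values under the rule, 3 changed sign in Cy5 alone at 6 h: Defa2 (-0.098), Defa29 (-0.054) and Defa38 (-0.12); Reg3b at 1 h ranged from 3.29 to 5.69. All-gene counts differed more. At 1, 4 and 6 h the processed signals put 117, 144 and 229 genes above the rule and 42, 99 and 195 below it, against 34, 25 and 47 higher and 5, 22 and 48 lower here. The deposited ratios gave 117, 146 and 229 higher and 42, 98 and 195 lower, an offset of 0 gave 46, 38 and 81 higher and 7, 44 and 102 lower, and Cy5 alone gave 39, 49 and 159 higher and 70, 119 and 216 lower. Median centring gave 3030 higher and 0 lower at 1 h, where it shifted the all-gene median to 0.86, and 41 higher and 110 lower at 6 h, with a median of -0.15. A 1.5-fold rule gave 135, 139 and 209 higher and 48, 145 and 349 lower, and a 3-fold rule 14, 8 and 17 higher and 0, 4 and 10 lower. The lower count at 1 h was 3 with no filter and 8 with the brightest probe. All 10 genes passed the rule in Cy5 alone at 1 or more times. All 10 did in the processed Cy5 signals too, an alternative chosen after seeing the data. The share of all genes that did so was not computed, and the 10 were chosen with these data known. Ang4 passed in Cy5 alone at 6 h only (1.62), with its spot in column 85. There 49.1% of spots differed by at least 1 in Cy5 at 6 h, all upward, against 4.07% in the other columns. No paired analysis was possible because each group has 1 array, and no array could be left out. The Cy5 spot of Reg3b on the untreated array was dim, and the size of its differences depends on the background correction.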
